A study of Mus musculus with 18 samples.

Results

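Histone cluster genes encode the linker histone H1 and the core histones H2A, H2B, H3 and H4 that package newly copied DNA. They were taken as every gene whose symbol begins with Hist1h, Hist2h, Hist3h or Hist4h, which gave 70 of the 55573 genes in the deposited table. Of these, 67 are annotated as protein coding and 3 as pseudogenes. By class, 6 encode H1, 20 H2A, 19 H2B, 12 H3 and 13 H4. By position, 56 lie in the Hist1 cluster on chromosome 13, 10 in Hist2 on chromosome 3, 3 in Hist3 on chromosome 11 and 1 in Hist4 on chromosome 6.

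The study sequenced total RNA of cultured cortical neural progenitor cells from C57BL/6 mice, which divide and give rise to neurons and glia. There were 3 groups of 6 libraries. Upf2 mock cells carried floxed Upf2 alleles (Upf2fl/fl) and received medium alone. Upf2 Cre cells had the same genotype and received an adeno-associated virus, AAV9, that carries Cre recombinase. Upf2 Trp53 Cre cells were Upf2fl/fl Trp53fl/fl and were given that virus as well. The product of Upf2 acts in nonsense-mediated mRNA decay, and Trp53 is the gene of the tumour suppressor p53. The virus-containing medium was replaced after 14 h and RNA was taken at 72 h. No mock library of the doubly floxed line and no library with a virus lacking Cre was analysed here, so an effect of the floxed line cannot be told apart from one of losing Trp53, nor virus from Cre. The labels do not say whether replicates came from separate animals, so p-values measure the spread between these libraries.

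Most histone genes of these clusters are expressed when DNA is replicated, and their mRNAs are unusual in ending not in a poly(A) tail but in a short stem-loop. The stem-loop binding protein SLBP, encoded by Slbp, holds that structure through 3′ end processing, export and translation. When replication stops, the mRNAs are degraded, and in human cells this uses the helicase UPF1, a protein shared with nonsense-mediated decay, and the exonuclease ERI1. Some cluster genes can also give longer, polyadenylated transcripts.

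The stem-loop was looked for in the annotated transcripts (GENCODE M21, mouse build GRCm38) as a perfect inverted repeat of 6 bases that begins with 2 G around a loop of 4 bases that begins with 3 T. It was found in 44 of the 70 members. Of the other 26, 3 are pseudogenes, 13 are coding genes with no annotated 3′ untranslated region and 2 have at most 30 nucleotides (nt) of it, so the annotation stops before the place where the loop would be. The remaining 8 have over 30 nt of it without the repeat. In 26 members the loop was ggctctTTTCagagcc, with the loop bases in capitals. The form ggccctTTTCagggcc occurred in 7 members, all of the H4 class, and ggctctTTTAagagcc in 6. The windows below belong to members that the results turn on, with the 16 bases of the stem-loop in capitals and up to 7 transcript bases on either side.

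Hist1h1c: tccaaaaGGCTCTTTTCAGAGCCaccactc
Hist3h2ba: acccaaaGGCTCTTTTCAGAGCCaccttcc
Hist2h2aa2: ctaaaaaGGCTCTTTTCAGAGCCacccact
Hist2h3c2: ccacaaaGGCTCTTTTCAGAGCCaccacag
Hist1h4i: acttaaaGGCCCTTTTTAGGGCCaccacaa
Hist1h4h: aaccaaaGGCCCTTTTCAGGGCCgcccaca
Hist1h4m: aactaaaGGCCCTTTTCAGGGCCatc
Hist1h4j: ccctaaaGGTCCTTTTCAGGACCaccacat

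The Hist1h1c, Hist3h2ba, Hist2h2aa2 and Hist2h3c2 windows share the same 16 bases. They come from the H1, H2B, H2A and H3 classes and from chromosomes 13, 11 and 3. The H4 members differ from them inside the stem, and Hist1h4i also in the loop. The annotated transcript of Hist1h4m ends 3 nt after the loop, as a processed histone mRNA does. That of Hist1h1c runs on for 840 nt, that of Hist1h4i for 330 nt and that of Hist3h2ba for 169 nt, and each of these extensions holds a poly(A) signal, AATAAA or ATTAAA. Such a signal followed the loop in 16 of the 44 members.

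Levels are given in transcripts per 1000000 (TPM), which are scaled for transcript length so that genes can be compared with each other. The lengths used by the authors are not given in the sources used here. In GENCODE M21 the transcript of Hist1h1d has 7425 nt and that of Hist1h4m 402 nt, so a member's level also depends on the annotated end. The summed TPM of the 70 members was small and uneven. Hist1h1c, which encodes H1.2, averaged 142 TPM over the 18 libraries, Hist1h4i (H4) 112 TPM, Hist1h2bc (H2B) 78.2 TPM and Hist3h2ba (H2B) 48.1 TPM. These 4 members made up 72.4% of the summed TPM. Only 10 members averaged at least 5 TPM, 29 averaged under 1 TPM, and Hist2h3c1 was listed at 0 in all 18 libraries.

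Members with a stem-loop and a poly(A) signal after it held 62.9% of the summed TPM, and those with a stem-loop and no such signal held 9.78%. Their median levels were close, at 1.41 TPM for the 16 members with the signal and 1.17 TPM for the 28 without, so the difference in summed TPM lay in a few members. Of the 19 members whose annotated transcript stops within 50 nt of the loop, Hist1h4h was highest, at 12.4 TPM. Since TPM are scaled by annotated length, level and annotated end are not independent measures. The 26 members with no stem-loop found held 27.3%, most of it from Hist1h2bc, whose 742-nt annotated 3′ untranslated region holds no perfect copy of the repeat.

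**Figure D1:**
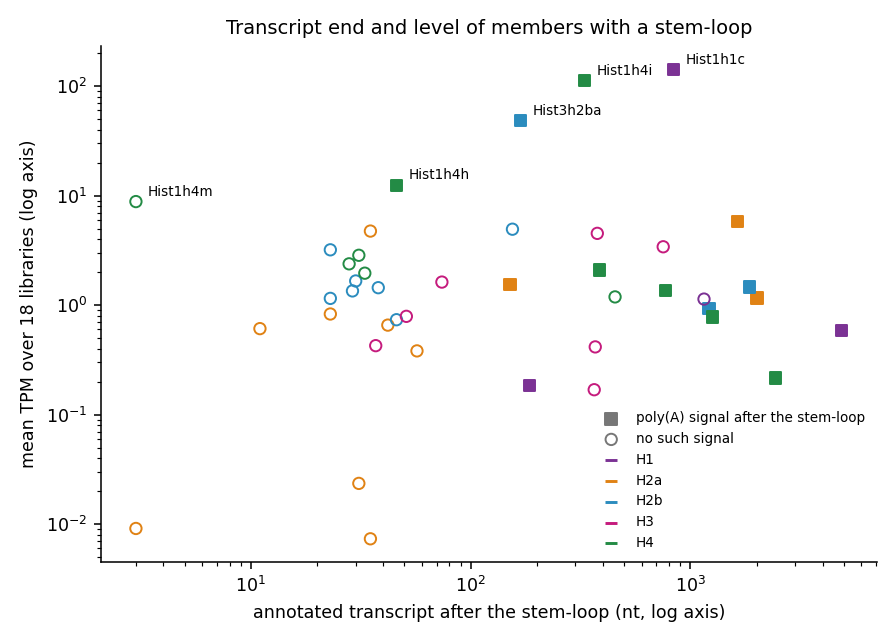
Annotated transcript length after the stem-loop (nt, log axis) against mean TPM over 18 libraries (log axis) for members with a stem-loop, coloured by class; filled squares have a poly(A) signal after the loop and open circles have none, and Hist2h3c1, at 0 TPM, is not drawn. Hist1h1c (142 TPM), Hist1h4i (112 TPM) and Hist3h2ba (48.1 TPM) lie above all others and are filled.

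RNAs that carry no poly(A) tail were not evenly present in the table, which bears on how well unpolyadenylated histone mRNA was measured. Rn7sk, the 7SK RNA, averaged 46.5 TPM (20.4 to 118 TPM over libraries), while Rmrp, Rpph1, Terc and the U7 RNA Rnu7 were listed at 0 in every library. These genes were chosen after their values were seen. Whether short or tail-less RNAs were lost in library making or in counting was not tested.

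Close copies limit which member a read can be given to. In 34 members more than 50% of all 50-base windows of the transcript also occur in another gene, and only Hist1h1a, Hist1h1b, Hist1h1t and Hist2h2be share none. All windows of Hist2h2aa2 occur elsewhere, as do 63.5% of those of Hist2h3c2, 89.8% of Hist1h4m, 86.4% of Hist1h2bn, 45.8% of Hist1h4h and 28.9% of Hist1h4i, but only 8.5% of Hist1h1c. How the authors gave such reads to genes is not stated in the sources used here, so the split between near-identical members is uncertain. Another gene overlaps 23 members on the opposite strand and 7 on the same strand, and 30 members have a divergent partner within 1000 bp. The library kit keeps strand, and whether the authors' counting used it is not stated in the sources used here.

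Depth is unknown, since TPM sum to 1000000 in every library, and between 14019 and 15210 genes reached 1 TPM. The defining progenitor markers were high (summed TPM at least 3446 in each library), microglial markers reached at most 1.13 TPM in sum with Aif1 and C1qa at 0, and vascular markers at most 1.55 TPM. Markers of other neural cells were present: summed neuron markers were at 83.6 to 200 TPM over libraries, astrocyte markers at 381 to 970 TPM and oligodendrocyte lineage markers at 1101 to 4055 TPM, and the part of such cells in the results was not tested. Upf2 averaged 11.1 ± 2.98 TPM (SD, n = 6) in mock cells, while Upf2 Cre cells had 20.2 ± 4.82 TPM and Upf2 Trp53 Cre cells 33.8 ± 9.03 TPM, a rise and not a fall. A gene-level value also counts exons outside a floxed stretch and does not measure the deletion, so the groups are named here as labelled. The Cre groups' rises over mock had exact two-sided permutation p = 0.0043 and 0.0022 (0.0064 and 0.0044 after adjustment over 6 tests). Trp53 averaged 104 ± 18.2, 138 ± 35.0 and 16.5 ± 1.69 TPM in the same order, and its fall in Upf2 Trp53 Cre reached the smallest exact permutation p that 6 against 6 libraries allow, 0.0022 (0.0044 adjusted). The library numbered 3 was least like the others of its group in all 3 groups, with a median Pearson correlation over 15216 genes of 0.92, 0.91 and 0.95 for mock, Upf2 Cre and Upf2 Trp53 Cre. Each count of members called is therefore also given without these 3 libraries.

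Summed over all 70 members, the level was highest in the Upf2 Trp53 Cre libraries. The mock libraries held 257, 353 and 544 TPM (lowest, median, highest), the Upf2 Cre libraries 301, 463 and 569 TPM, and the Upf2 Trp53 Cre libraries 512, 732 and 1076 TPM. The 3 ranges overlap, and mock replicate 3, with 544 TPM, stands above Upf2 Trp53 Cre replicates 3 and 4. The means were 367 ± 105, 447 ± 114 and 762 ± 244 TPM (SD, n = 6), so Upf2 Trp53 Cre was 2.08-fold above mock and 1.70-fold above Upf2 Cre, and Upf2 Cre was 1.22-fold above mock. In bulk RNA, more cells in S phase and more histone mRNA per cell cannot be told apart.

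The classes did not change by the same factor. For mock, Upf2 Cre and Upf2 Trp53 Cre in that order, summed H1 was 86.3 ± 46.5, 108 ± 19.8 and 252 ± 88.7 TPM (SD, n = 6), a 2.92-fold difference between the last group and mock. Summed H4 was 98.0 ± 23.7, 168 ± 61.4 and 214 ± 86.2 TPM, 1.71-fold and 2.18-fold above mock in the Cre groups. Summed H2B was 153 ± 63.1, 126 ± 36.9 and 245 ± 58.8 TPM.

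H2B was thus the class whose mean was lower in Upf2 Cre than in mock, by a factor of 0.82, and mock replicate 3 carried that difference: its summed H2B was 276 TPM against 109 to 160 TPM in the other mock libraries. Without it the log2 difference went from -0.28 to -0.03. H2A and H3 were the least abundant classes, at 18.2 ± 11.3 and 11.1 ± 5.15 TPM in mock. H2A was 1.5-fold above mock in Upf2 Cre and 1.48-fold in Upf2 Trp53 Cre, where the log2 difference of 0.56 became 0.16 without Upf2 Trp53 Cre replicate 6. H3 was 1.63-fold and 2.12-fold above mock. In Upf2 Cre 1 member carried each of these values: without Hist2h2aa2 the other 19 H2A members summed to 16.1 ± 6.83 TPM against 17.2 ± 11.2 TPM in mock, and without Hist2h3c2 the other 11 H3 members summed to 8.85 ± 5.90 TPM against 10.3 ± 5.25 TPM (SD, n = 6). H4 without its most abundant member, Hist1h4i, was still 2.14-fold above mock, at 47.8 ± 27.1 TPM against 22.4 ± 2.68 TPM. Most of that difference lay in Hist1h4h (mean 17.6 against 2.89 TPM) and Hist1h4m (9.16 against 1.11 TPM), so it was not spread over the class. The members left out had the largest mean difference of their class and were chosen after their values were seen. Between the Cre groups, log2 differences were 1.22 for H1, 0.96 for H2B, 0.39 for H3, 0.35 for H4 and -0.03 for H2A, whose sign turned when some single libraries were left out (-0.43 to 0.12); with median-ratio scaling they were 0.91, 0.67, 0.03, 0.03 and -0.37. No p-value is given for sums over members.

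By cluster, the Hist1 genes carried the difference: in the same order of groups their sum was 291 ± 78.5, 369 ± 92.3 and 670 ± 221 TPM (SD, n = 6), 2.30-fold above mock in the last group. The Hist2 sum was 18.2 ± 7.98, 30.3 ± 14.5 and 26.8 ± 7.09 TPM, with its highest mean in Upf2 Cre and groups that overlap. Its members did not move together. Mean Upf2 Cre and mock levels were 11.3 and 0.945 TPM for Hist2h2aa2, 9.13 and 0.792 TPM for Hist2h3c2, but 6.80 and 12.8 TPM for Hist2h2be. The Hist3 sum was 57.3 ± 21.4, 47.5 ± 17.3 and 65.2 ± 20.1 TPM, with groups that overlap. Members with a stem-loop in their annotated transcript summed to 252 ± 64.0, 353 ± 105 and 541 ± 190 TPM, and those without one to 115 ± 47.5, 94.5 ± 26.8 and 221 ± 63.3 TPM. In Upf2 Cre the first set was 1.40-fold and the second 0.82-fold the mock mean. Hist1h2bc makes up most of the second set, so this contrast is largely that of single abundant members.

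**Figure D2:**
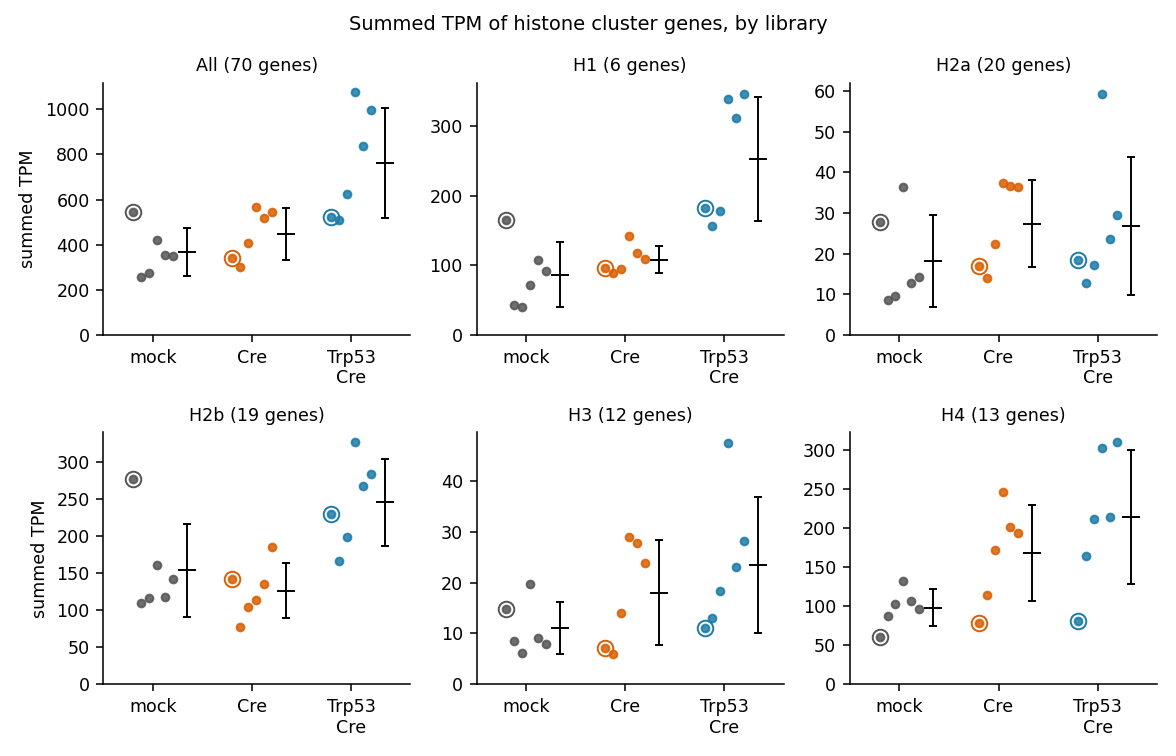
Summed TPM of all members and of each class in every library of Upf2 mock, Upf2 Cre and Upf2 Trp53 Cre; points are libraries, the ringed point is the library numbered 3, and the bar at the right of each group is mean ± SD (n = 6). Summed H1 is 156 to 346 TPM in Upf2 Trp53 Cre and 89.5 to 143 TPM in Upf2 Cre, and the ringed mock library has the highest summed H2B of its group, 276 TPM.

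Single members were tested with limma on log2(TPM + 1), fitted over the 15216 genes that reached 1 TPM in 6 or more libraries. The 41 members that passed this minimum are not all members: one that is low in 2 groups can pass through the third alone. The 29 not tested averaged at most 1.55 TPM over all libraries, and 14 of them are H2A genes. Log2 differences are on the log2(TPM + 1) scale, which understates changes of low genes, and p values were adjusted over all 15216 genes after Benjamini and Hochberg, with a threshold of 0.05. Comparisons that share a group share its libraries and are not independent.

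Upf2 Cre against Upf2 mock asks what differed in floxed progenitors given Cre. A small set was higher: mean TPM was 11.5-fold above mock for Hist2h3c2 of the Hist2 cluster, 8.26-fold for the H4 gene Hist1h4m and 6.08-fold for the H4 gene Hist1h4h, and Hist2h2aa2, next to Hist2h3c2, was also higher. The H2B genes Hist2h2be and Hist1h2bh were lower. In all, 5 of 41 tested members rose and 2 fell. Among all tested genes 16.5% rose and 24.2% fell, so neither count stands above that background. No tested member's groups were free of overlap, against 3.79% of all genes higher and 2.07% lower without overlap. The members' median log2 difference was 0.19 against -0.12 for all genes. By class, 3 of 11 tested H4 genes, 1 of 6 H2A and 1 of 5 H3 genes rose, 2 of 15 H2B genes fell, and none of the 4 tested H1 genes was called (limma; over all 41 members 7 were higher and 3 lower at an unadjusted p under 0.05).

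Hist2h2aa2 (ENSMUSG00000063954.7, chr3:96239749-96240276, minus strand), which encodes H2A, was at 0.141, 0.935 and 1.91 TPM in mock (lowest, median, highest). Its Upf2 Cre libraries held 0.858, 8.45 and 24.4 TPM and its Upf2 Trp53 Cre libraries 0.911, 1.85 and 3.45 TPM. In Upf2 Cre, 5 of 6 libraries lie above all mock libraries, and replicate 3 lies among them. Its log2 difference was 2.29 ± 0.48 (SE; limma adjusted p = 0.0019).

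Hist2h3c2 (ENSMUSG00000081058.5, chr3:96238108-96239127, minus strand) is its neighbour on the same strand and encodes H3. It was at 0.226, 0.622 and 1.73 TPM in mock. Its Upf2 Cre libraries held 0.888, 8.23 and 20.3 TPM and its Upf2 Trp53 Cre libraries 1.73, 3.43 and 5.49 TPM. The same Upf2 Cre libraries were high and low as for Hist2h2aa2, replicate 8 highest in both and replicate 3 lowest. The log2 difference was 2.11 ± 0.46 (limma adjusted p = 0.0023). Both genes share windows with Gm20634, and Hist2h2aa2 also with Hist2h2aa1 and Hist2h3c2 also with Hist2h3c1. Those last members were listed near or at 0 (means of 0.0073 and 0 TPM), so the signal was placed on one copy of each pair.

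Hist1h4m (ENSMUSG00000069306.5, chr13:21811746-21812147, plus strand), which encodes H4, was at 0.554, 1.14 and 1.68 TPM in mock and at 0.676, 9.72 and 19.3 TPM in Upf2 Cre. Upf2 Cre replicate 3 falls within the mock range and the other 5 libraries lie above it. The log2 difference was 1.86 ± 0.56 (limma adjusted p = 0.014).

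Hist1h4h (ENSMUSG00000060981.7, chr13:23531050-23531519, plus strand), another H4 gene, was at 1.58, 2.67 and 4.67 TPM in mock and at 1.35, 22.6 and 28.8 TPM in Upf2 Cre. Replicates 3 and 4 of Upf2 Cre, at 1.35 and 3.39 TPM, lie below the highest mock libraries, and the other 4 lie between 19.4 and 28.8 TPM. The log2 difference was 1.78 ± 0.57 (limma adjusted p = 0.019; 0.052 without Upf2 Cre replicate 8). The third H4 gene called, Hist1h4f, had the small difference of 0.55 ± 0.21 (limma adjusted p = 0.047), which kept its call in 3 of 12 fits that each left out 1 library.

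The members that fell are H2B genes. Hist2h2be (ENSMUSG00000068854.7, chr3:96221119-96223738, plus strand), whose transcript shares no window with another gene, was at 9.14, 10.4 and 26 TPM in mock and at 4.52, 5.18 and 13.1 TPM in Upf2 Cre. In both groups the highest value is that of replicate 3, and the other 5 mock libraries lie above the other 5 Upf2 Cre libraries. The log2 difference was -0.81 ± 0.26 (limma adjusted p = 0.021; 0.054 without Upf2 Cre replicate 8). Hist1h2bh fell by 0.50 on the log2 scale from a mean of 1.13 TPM (limma adjusted p = 0.038), and that call was kept in 5 of 12 such fits.

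Of the most abundant members, none was called in this comparison. Hist1h1c had a log2 difference of 0.48 ± 0.30, Hist1h4i of 0.66 ± 0.28, Hist1h2bc of -0.29 ± 0.30 and Hist3h2ba of -0.42 ± 0.28 (limma adjusted p = 0.20, 0.067, 0.45 and 0.24). Without the 3 libraries numbered 3, 11 members rose and 2 fell, where 25.5% of all tested genes rose and 33.3% fell. The 7 members called with all libraries were called again, and Hist1h1c, Hist1h1e, Hist1h2bj, Hist1h3d, Hist1h4i and Hist3h2a were added. The number that rose was 8 without Upf2 Cre replicate 3 alone and 3 without Upf2 Cre replicate 8. For those fits the share of all tested genes called was not computed.

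**Figure D3:**
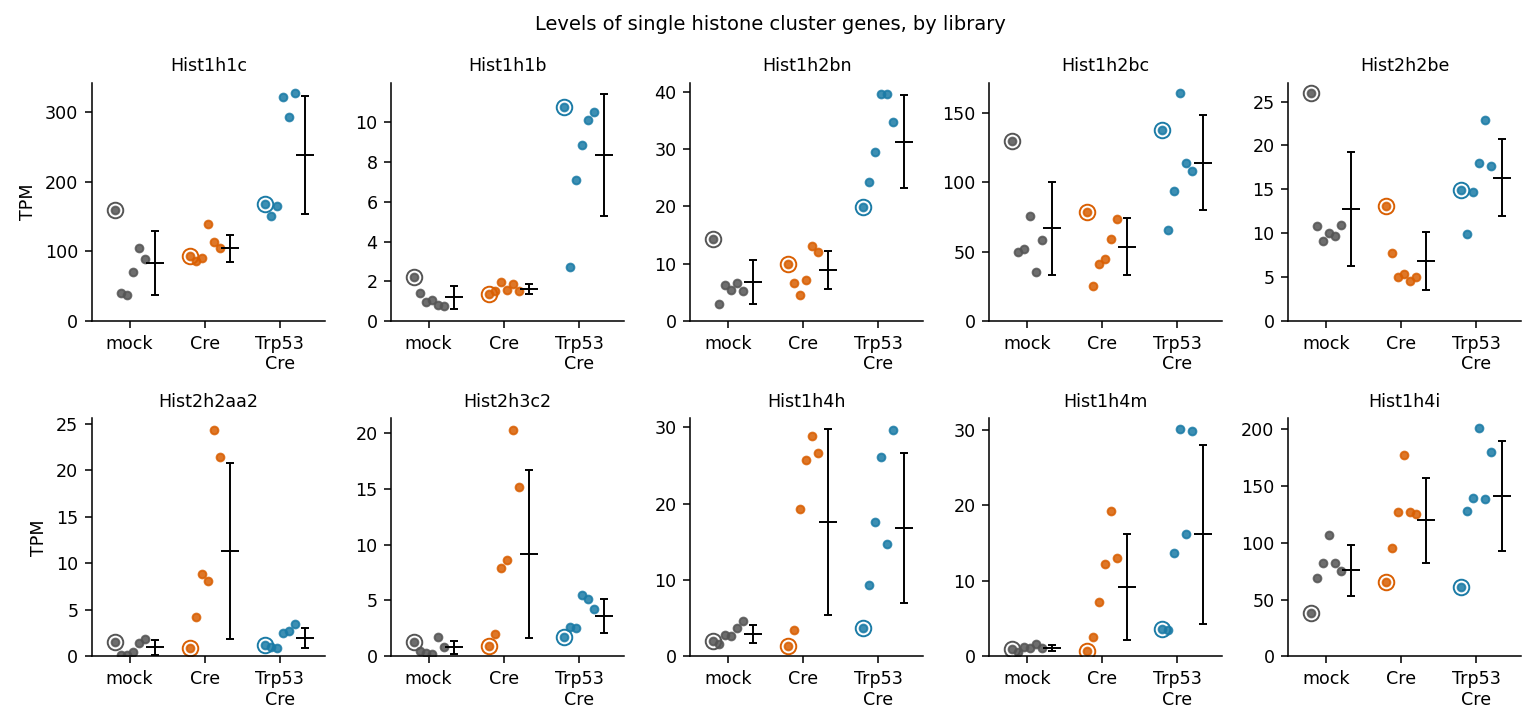
TPM of 10 members in every library of Upf2 mock, Upf2 Cre and Upf2 Trp53 Cre; points are libraries, the ringed point is the library numbered 3, and bars are mean ± SD (n = 6). Every Upf2 Trp53 Cre library of Hist1h1b and Hist1h2bn lies above all others, Hist2h2aa2 reaches 24.4 TPM in Upf2 Cre and at most 3.45 TPM in Upf2 Trp53 Cre, and most Cre libraries of Hist1h4h and Hist1h4m lie above the mock libraries.

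Upf2 Trp53 Cre against Upf2 mock sets the doubly floxed cells given Cre against the singly floxed cells given medium. All 4 tested H1 genes, Hist1h1a, Hist1h1b, Hist1h1c and Hist1h1e, were higher, as were 4 of 15 H2B, 1 of 5 H3 and 3 of 11 H4 genes, and none of 6 H2A genes was called. Hist1h1a and Hist1h1e would not have passed the minimum without the Upf2 Trp53 Cre libraries. The share of tested H1 genes called was thus partly set by the filter. Together 12 of 41 tested members rose and none fell (limma; 23 were higher and 0 lower at an unadjusted p under 0.05). Of all tested genes, 10.4% rose and 1.09% fell. The groups of 6 tested members did not overlap, all higher in Upf2 Trp53 Cre, a state that 7.08% of all genes showed, with 0.841% lower without overlap. Among the 6 is Hist2h3c2, which was not called (limma adjusted p = 0.060) and whose lowest Upf2 Trp53 Cre and highest mock values are both 1.73 TPM after rounding. The members' median log2 difference was 0.67 against 0.08 for all genes. A positive sign was found in 39 of 41 members and in 8849 of all 15216 tested genes. Members that share sequence can share reads, so their signs are not independent.

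Hist1h1b (ENSMUSG00000058773.2, chr13:21779883-21780625, minus strand) encodes H1.5, and its transcript shares no 50-base window with another gene. It was at 0.739, 0.982 and 2.22 TPM in mock (lowest, median, highest). Its Upf2 Cre libraries held 1.34, 1.52 and 1.96 TPM and its Upf2 Trp53 Cre libraries 2.70, 9.50 and 10.8 TPM. Every Upf2 Trp53 Cre library lies above all 12 others, replicate 4 the closest to them. The log2 difference from mock was 2.03 ± 0.24 (limma adjusted p = 6.9e-06), the smallest adjusted p of any member in this comparison.

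Hist1h1c (ENSMUSG00000036181.2, chr13:23738808-23740367, plus strand), the most abundant member, was at 37.9, 79.1 and 159 TPM in mock. Its Upf2 Cre libraries held 86.1, 98.9 and 139 TPM and its Upf2 Trp53 Cre libraries 151, 230 and 327 TPM. Mock replicate 3, at 159 TPM, lies above the lowest Upf2 Trp53 Cre library, and the other mock libraries reach at most 105 TPM. The log2 difference was 1.60 ± 0.30 (limma adjusted p = 0.0012). Hist1h1a, which shares no window, rose by 1.09 ± 0.26 from 0.868 to 3.18 TPM, and Hist1h1e rose by 0.83 ± 0.22 from 0.501 to 1.77 TPM (limma adjusted p = 0.0082 and 0.016). Hist1h1e is overlapped on its own strand by Hist1h2be and Gm11398, so its reads cannot be fully told apart from theirs. The other H1 genes, Hist1h1d and the testis-enriched Hist1h1t, did not reach the minimum and averaged 1.15 and 0.353 TPM in Upf2 Trp53 Cre against 0.321 and 0.173 TPM in mock.

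Hist1h2bn (ENSMUSG00000095217.1, chr13:21754123-21754503, plus strand), which encodes H2B, was at 2.92, 5.84 and 14.2 TPM in mock. Its Upf2 Cre libraries held 4.62, 8.54 and 13.0 TPM and its Upf2 Trp53 Cre libraries 19.9, 32.1 and 39.6 TPM. The Upf2 Trp53 Cre range lies above both others. The log2 difference was 2.13 ± 0.28 (limma adjusted p = 2.8e-05), with the limit that 86.4% of its windows occur in other H2B genes. Hist1h2bj, also H2B, rose by 1.34 ± 0.27 from 1.42 ± 0.563 to 5.48 ± 2.53 TPM (SD, n = 6; limma adjusted p = 0.0020), also without overlap.

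The H4 genes Hist1h4m and Hist1h4h were high here too. Hist1h4m was at 3.47, 14.9 and 30.1 TPM in Upf2 Trp53 Cre, above every mock library, with a log2 difference of 2.65 ± 0.56 (limma adjusted p = 0.0029). Hist1h4h was at 3.76, 16.1 and 29.7 TPM, with replicate 3 inside the mock range, and its difference of 2.01 ± 0.57 (limma adjusted p = 0.024) lost the call with median-ratio scaling, with no filter on low values and without any of mock replicate 4 and Upf2 Trp53 Cre replicates 5, 6 and 9. Hist1h4i, the abundant H4 gene, was at 38.2, 78.6 and 107 TPM in mock and 60.7, 139 and 201 TPM in Upf2 Trp53 Cre (log2 difference 0.87 ± 0.28, limma adjusted p = 0.051), so it narrowly missed the threshold. The smaller calls were Hist1h2be (0.64 ± 0.19) and Hist1h2bf (0.93 ± 0.25) of the H2B class, Hist1h3d (1.18 ± 0.33) of the H3 class and Hist1h4j (1.11 ± 0.26) of the H4 class, whose means in Upf2 Trp53 Cre were between 2.13 and 5.63 TPM. Hist3h2ba differed by 0.09 ± 0.28 (limma adjusted p = 0.87) and Hist1h2bc by 0.83 ± 0.30 (limma adjusted p = 0.083).

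The Hist1h1e call was lost with quantile normalization (limma adjusted p = 0.072). Leaving out each library in turn kept 8 of the 12 calls in all 12 fits: Hist1h1a, Hist1h1b, Hist1h1c, Hist1h1e, Hist1h2bj, Hist1h2bn, Hist1h4j and Hist1h4m. The count was 19 without Upf2 Trp53 Cre replicate 3, a fit for which the share of all tested genes called was not computed. Without the 3 libraries numbered 3 the count was 24, with all 12 among them, where 18.9% of all tested genes rose and 4.47% fell.

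**Figure D4:**
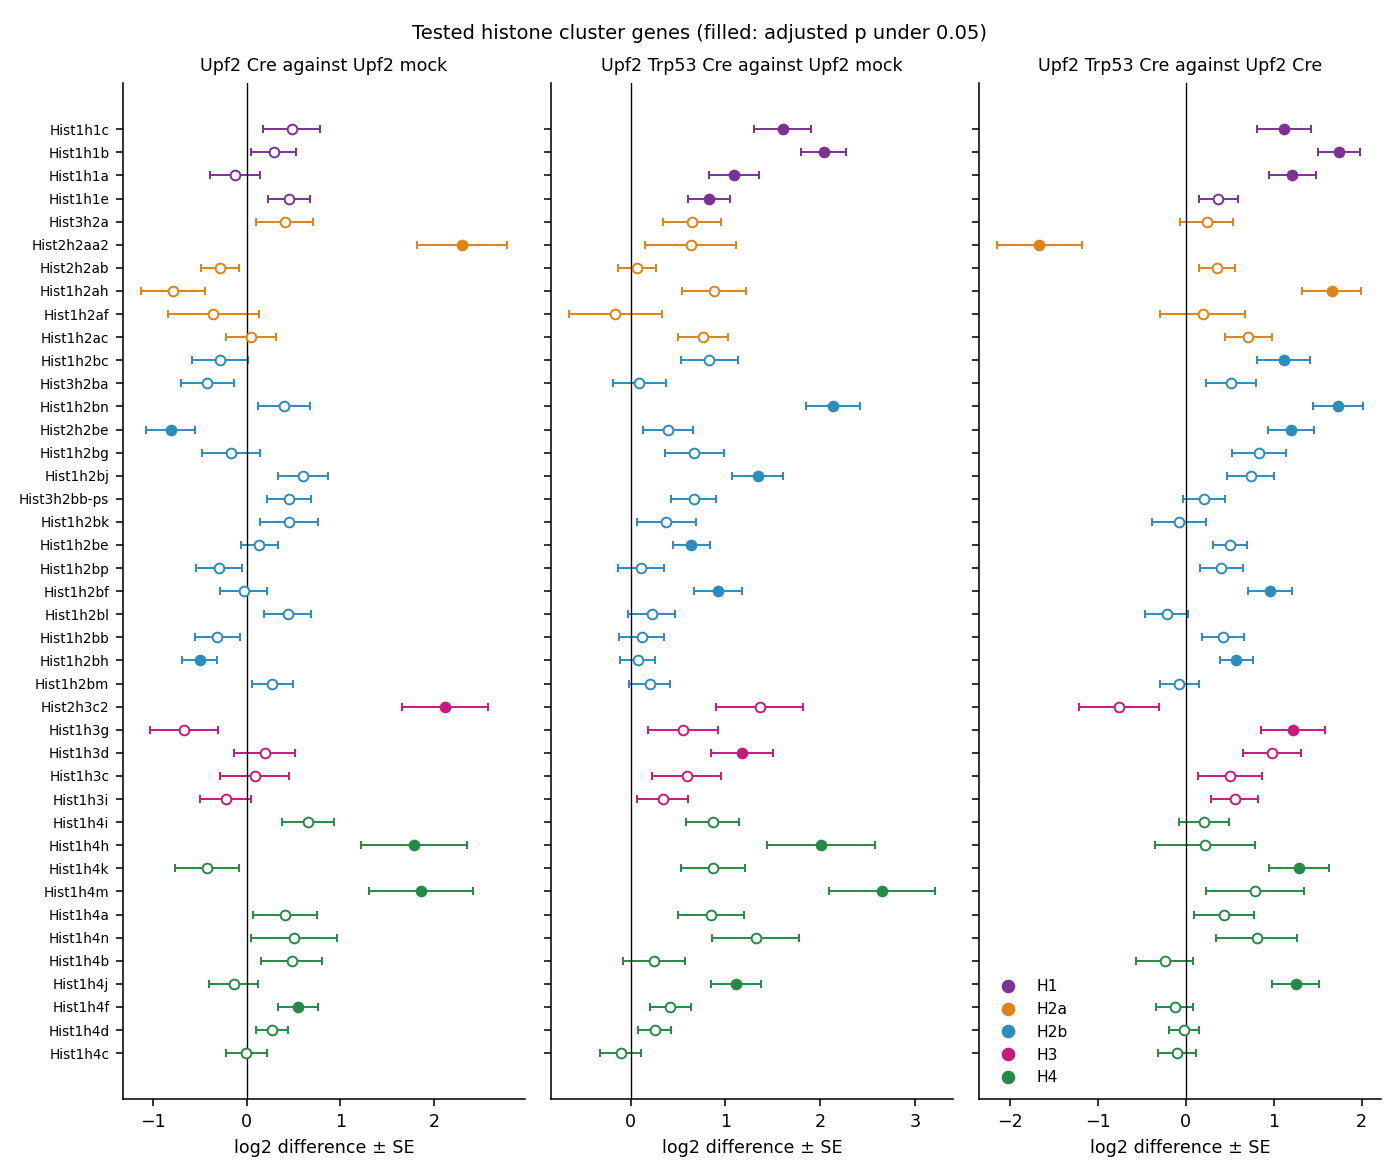
Log2 difference ± SE of the 41 tested members in the 3 comparisons, ordered by class and then by mean TPM; filled points passed an adjusted p of 0.05. All 4 tested H1 genes are filled and right of 0 for Upf2 Trp53 Cre against mock, where Hist1h1a and Hist1h1e needed the Upf2 Trp53 Cre libraries to be tested. Hist2h2aa2 is right of 0 for Upf2 Cre against mock (2.29) and left of 0 between the Cre groups (-1.66).

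Upf2 Trp53 Cre against Upf2 Cre compares the Cre-treated lines, with and without floxed Trp53. H1 and H2B genes were again the largest part of those that were higher: 3 of 4 tested H1 genes, 5 of 15 H2B, 1 of 6 H2A, 1 of 5 H3 and 2 of 11 H4 genes rose, 12 in all. Hist1h1a, among these H1 genes, would not have passed the minimum without the Upf2 Trp53 Cre libraries. Hist2h2aa2 alone fell. Of all tested genes 11.8% rose and 2.46% fell. The groups of 5 tested members did not overlap (Hist1h1b, Hist1h1c, Hist1h2ah, Hist1h2bh and Hist1h2bn), all higher in Upf2 Trp53 Cre, where 1.87% of all genes showed this and 0.848% were lower without overlap. The members' median log2 difference was 0.51 and that of all genes 0.25.

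That last value depends on scaling. With median-ratio scaling the median of all genes was 0.02, and the genes called over the whole table went from 1791 higher and 374 lower to 305 higher and 727 lower (539 and 592 with quantile normalization). Among members, 6 rose and Hist2h2aa2 fell under either scaling. The 6 were Hist1h1a, Hist1h1b, Hist1h2ah, Hist1h2bn, Hist1h4j and Hist2h2be, the same 6 that kept their call without any single library. The calls of Hist1h1c, Hist1h2bc, Hist1h2bf, Hist1h2bh, Hist1h3g and Hist1h4k were lost. For the other comparisons the share of calls that were higher went from 40.5% to 49.2% for Upf2 Cre and from 90.5% to 67.0% for Upf2 Trp53 Cre, each against mock.

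Hist1h1b differed by 1.75 ± 0.24 between the Cre groups (limma adjusted p = 9.4e-05), which is 1.5 above the median of all genes, and Hist1h2bn by 1.73 ± 0.28 (limma adjusted p = 0.00064), 1.48 above it. Hist1h2ah (ENSMUSG00000069302.5, chr13:22035164-22035568, minus strand), an H2A gene, was at 0, 0.193 and 0.404 TPM in Upf2 Cre, at 0.861, 2.39 and 10.1 TPM in Upf2 Trp53 Cre and at 0, 1.01 and 1.89 TPM in mock. Its Upf2 Cre libraries all lie below its Upf2 Trp53 Cre libraries, and the difference was 1.66 ± 0.34 (limma adjusted p = 0.0056); other genes hold 90.7% of its windows. Hist1h4j (H4) rose by 1.25 ± 0.26 and Hist1h1a by 1.21 ± 0.26 (limma adjusted p = 0.0073 and 0.0084).

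Hist2h2be, lower in Upf2 Cre than in mock, was at 9.92, 16.3 and 22.9 TPM in Upf2 Trp53 Cre and differed by 1.20 ± 0.26 between the Cre groups (limma adjusted p = 0.0096). Hist1h1c differed by 1.12 ± 0.30 and Hist1h2bc by 1.12 ± 0.30 (limma adjusted p = 0.023 for each), 0.87 above the median of all genes in both cases. Hist2h2aa2 fell by 1.66 ± 0.48 (limma adjusted p = 0.029), a call kept in 5 of 12 fits that each left out 1 library and lost with a pseudocount of 0.1. The other calls, Hist1h2bf, Hist1h2bh, Hist1h3g and Hist1h4k, had log2 differences between 0.58 and 1.29. Hist2h3c2, the neighbour of Hist2h2aa2, differed by -0.75 ± 0.46 (limma adjusted p = 0.24). Without Upf2 Trp53 Cre replicate 6 the number that rose was 7, and the share of all tested genes in that fit was not computed. Without the 3 libraries numbered 3 the number that rose was 19 with 1 lower, where 28.0% of all tested genes rose and 8.71% fell.

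Promoters are described because the 4 tested H1 genes were called together in Upf2 Trp53 Cre against mock, and H1 promoters are known for an element named the H1 box. The filter had a part in that shared call, since Hist1h1a and Hist1h1e passed it only with Upf2 Trp53 Cre libraries. RefSeq promoters (GRCm38.p6, 250 bases before to 50 after the start) were matched for 62 members, 63 sequences in all. Motifs were sought as exact letters on both strands: TATAAA (the TATA box), CCAAT, ATTTGCAT (the octamer) and AAACACA (the H1 box). No motif contains another. TATAAA was present in 55.6% of member promoters and 13.6% of all 32851 promoters, and CCAAT in 85.7% and 37.4%. CCAAT was in every H1, H2A, H2B and H3 promoter and in 3 of 12 H4 promoters. The octamer was in 7 of 18 H2A and 7 of 17 H2B promoters and in no other class, and in 1.74% of all promoters. The H1 box was in 5 of 6 H1, 2 of 18 H2A and 2 of 17 H2B promoters, in no H3 or H4 promoter and in 7.18% of all. Windows of divergent H2A and H2B genes can overlap, as those of Hist1h2ah and Hist1h2bk do. The same site can then count in both classes, so the H2A and H2B counts are not independent. The promoters of Hist1h1b and Hist1h1c, which rose in both comparisons of Upf2 Trp53 Cre, and of Hist1h4m, which rose in both Cre groups against mock, are given with motif letters in capitals.

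Hist1h1b promoter, chr13:21780576-21780875, minus strand: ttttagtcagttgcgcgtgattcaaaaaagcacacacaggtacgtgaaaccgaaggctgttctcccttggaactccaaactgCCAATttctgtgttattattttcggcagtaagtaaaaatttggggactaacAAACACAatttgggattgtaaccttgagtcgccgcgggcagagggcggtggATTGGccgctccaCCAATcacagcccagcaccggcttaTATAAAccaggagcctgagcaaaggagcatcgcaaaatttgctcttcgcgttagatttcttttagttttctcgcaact
Hist1h1c promoter, chr13:23738557-23738856, plus strand: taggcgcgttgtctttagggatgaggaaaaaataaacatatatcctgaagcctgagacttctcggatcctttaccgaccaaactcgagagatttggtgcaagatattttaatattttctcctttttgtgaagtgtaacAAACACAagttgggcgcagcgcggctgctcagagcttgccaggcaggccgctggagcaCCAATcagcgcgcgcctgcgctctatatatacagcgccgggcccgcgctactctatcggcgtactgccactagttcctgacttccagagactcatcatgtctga
Hist1h4m promoter, chr13:21811496-21811795, plus strand: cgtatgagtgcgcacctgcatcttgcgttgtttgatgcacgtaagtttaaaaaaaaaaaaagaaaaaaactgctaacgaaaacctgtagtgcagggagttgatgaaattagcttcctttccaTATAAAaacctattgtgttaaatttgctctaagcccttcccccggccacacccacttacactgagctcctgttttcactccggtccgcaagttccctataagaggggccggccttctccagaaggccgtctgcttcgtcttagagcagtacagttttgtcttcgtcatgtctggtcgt

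The Hist1h1b window holds an H1 box, 3 CCAAT matches on either strand (ATTGG is the reverse strand) and a TATA box. That of Hist1h1c holds an H1 box and 1 CCAAT match, with no TATAAA. That of Hist1h4m holds TATAAA and none of the other 3 motifs. Hist1h1a, which also rose in Upf2 Trp53 Cre, is the H1 gene whose promoter lacks the H1 box letters. These matches describe the sequence and are not evidence of binding.

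Genes that make, stabilise, degrade or use histone mRNA and protein were listed to set beside the members. The lists overlap, so their counts are not independent: Slbp is in the processing, decay and S phase lists and Mcm2 in the chaperone and S phase lists. The processing list also holds the cell cycle genes E2f1, Cdk2, Ccne1, Ccne2 and Cdc7. In Upf2 Cre against mock more of them fell than rose, where 24.2% of all tested genes fell and 16.5% rose. Of 32 tested S phase and DNA replication genes 16 fell and none rose (limma; 18 lower and 0 higher at an unadjusted p under 0.05), with a median log2 difference of -0.79. Leaving out 1 library gave 27 without mock replicate 3, 7 without any of mock replicates 4, 5 and 6 and Upf2 Cre replicate 8, and 9 or 10 without Upf2 Cre replicates 5, 6 or 9. For no fit that left out 1 library was the share of all tested genes called computed. Rrm1, a subunit of ribonucleotide reductase, averaged 36.7 ± 30.8 TPM in Upf2 Cre against 111 ± 42.1 TPM in mock (SD, n = 6), a fall called by the test (log2 difference -1.73 ± 0.37, limma adjusted p = 0.0020). Pcna, the replication clamp, fell by 1.34 ± 0.42 (limma adjusted p = 0.017), and the helicase subunit gene Mcm2 differed by -0.23 ± 0.34 (limma adjusted p = 0.61).

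Of 23 tested genes of histone mRNA processing and transcription, 9 fell and none rose (median -0.55; 12 lower and 2 higher at an unadjusted p under 0.05), and 14 were called without mock replicate 3 or without Upf2 Cre replicate 3. Slbp fell, with 14.5 ± 5.86 TPM against 32.0 ± 17.0 TPM in mock (log2 difference -0.95 ± 0.33, limma adjusted p = 0.029). Npat, the coactivator of histone gene transcription, differed by -0.54 ± 0.23 (limma adjusted p = 0.068) and Casp8ap2, whose product FLASH acts in histone mRNA cleavage, by -0.25 ± 0.27 (limma adjusted p = 0.46). Of 16 decay genes 8 fell and 1 rose (median -0.52). Eri1 fell by 1.36 ± 0.32 from 18.6 ± 8.51 to 6.61 ± 3.93 TPM, and Upf1 was the one that rose, by 0.81 ± 0.20 from 82.4 ± 12.2 to 149 ± 37.7 TPM (limma adjusted p = 0.0041 and 0.0042).

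Replication-independent histone variants, most of them made throughout the cell cycle from polyadenylated mRNA, fell in 7 of 12 tested genes and rose in 1, H2afj, which was named after its value was seen (median -0.70). H2afz, which encodes H2A.Z, averaged 676 ± 633 TPM against 1560 ± 503 in mock (log2 difference -1.53 ± 0.40, limma adjusted p = 0.0069), and H3f3b, which encodes H3.3, fell by 1.06 ± 0.28 (limma adjusted p = 0.0071). H2afx differed by 0.13 ± 0.41 and H1f0 by -0.41 ± 0.21 (limma adjusted p = 0.82 and 0.11). Of 19 histone chaperone genes 8 fell and 1 rose (median -0.63), Rbbp4 with the smallest adjusted p (-1.14 ± 0.19, limma adjusted p = 0.00036). Among all tested genes the median was -0.12.

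In Upf2 Trp53 Cre against mock few of these genes were called, where 10.4% of all tested genes rose and 1.09% fell. Smg1, the kinase of UPF1, rose by 1.04 ± 0.22 and Upf1 by 0.72 ± 0.20 among 16 decay genes (limma adjusted p = 0.0034 and 0.018), and Hinfp, a transcription factor of H4 genes, by 0.54 ± 0.15 among 23 processing and transcription genes (limma adjusted p = 0.025). The Hinfp list had no call without any of mock replicates 4 and 6 and Upf2 Trp53 Cre replicates 5 and 9. Of the 32 replication genes none was called and none passed an unadjusted p of 0.05 (limma), with a median of 0.09. None of 12 variant genes was called (0 higher and 3 lower at an unadjusted p under 0.05), and none of 19 chaperone genes (3 higher and 0 lower). Slbp differed by -0.31 ± 0.33 (limma adjusted p = 0.60).

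Between the Cre groups, 5 of 32 replication genes, 5 of 23 processing and transcription genes, 4 of 16 decay genes, 5 of 12 variant genes and 3 of 19 chaperone genes were higher in Upf2 Trp53 Cre and none was lower (limma; at an unadjusted p under 0.05, 1 variant gene and no gene of the other lists was lower). Of all tested genes 11.8% rose and 2.46% fell. The list medians were 0.79, 0.58, 0.61, 0.49 and 0.52, against 0.25 for all genes. With median-ratio scaling the counts called were 0, 0, 0, 0 and 1 in the same order, as they were without Upf2 Cre replicate 8. Without Upf2 Cre replicate 3 they were 17, 12, 9, 8 and 6. The share of all tested genes called was not computed for the fits that left out 1 library. Each of the 12 libraries, when left out, moved at least 1 of these counts by over 1.5 times. Rrm1 differed by 1.10 ± 0.37 (limma adjusted p = 0.050), just short of the threshold, H2afz rose by 1.41 ± 0.40 and H1f0 by 0.75 ± 0.21 (limma adjusted p = 0.028 and 0.024), and Slbp differed by 0.64 ± 0.33 (limma adjusted p = 0.17).

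**Figure D5:**
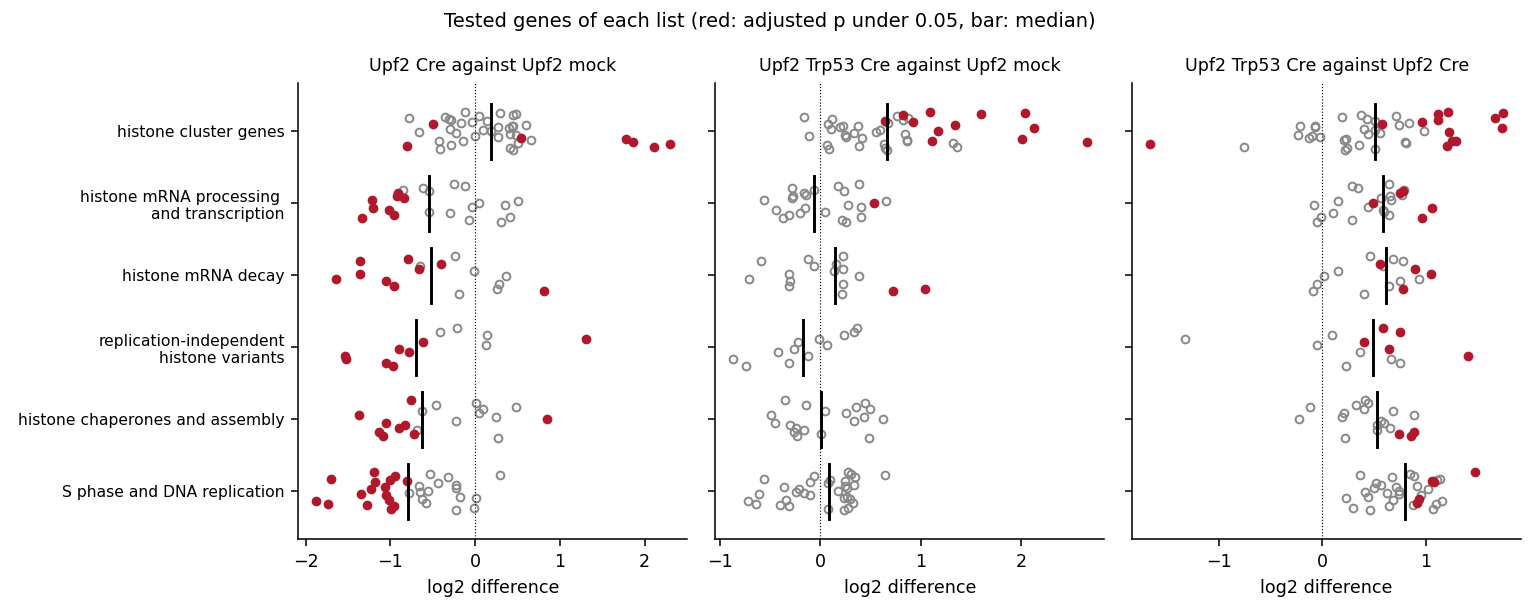
Log2 difference of each tested gene of the histone clusters and of 5 lists of related genes in the 3 comparisons; red points passed an adjusted p of 0.05 and black bars are medians. In Upf2 Cre against mock the lists' medians lie between -0.79 and -0.52 and that of the histone cluster genes at 0.19, and in Upf2 Trp53 Cre against mock the histone cluster genes have a median of 0.67 and the lists lie between -0.17 and 0.15.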

How the data were processed

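RNA of 18 cultures was sequenced from libraries of the TruSeq Stranded Total RNA kit, per the labels' protocols. The authors deposited 1 table of TPM per gene. STAR and mm10 are named in the submitters' processing notes; the program that made the TPM, its annotation and its handling of reads with several matches are not given in the sources used here. Of 55573 gene IDs, 55094 occur with the same version in GENCODE M21, and 27 names turned into dates by a spreadsheet were restored. Depth is unknown, so no counting interval can be given.

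Genes that reached 1 TPM in 6 or more libraries were tested. The values, as log2(TPM + 1), were fitted with limma 3.58.1 (R 4.3.3; moderated test with a trend, all 3 groups in 1 fit, Benjamini-Hochberg 0.05) after the code was tested on simulated data. Upf2 and Trp53 used exact permutation tests. Stem-loops were read from GENCODE M21 transcripts, promoters from RefSeq. Alternatives changed the pseudocount, filter, scaling, groups fitted, replicate block and libraries.

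The members, lists and tests were chosen with earlier results of these data known. Named were members averaging 20 TPM, the 5 members with the smallest adjusted p per comparison and direction, up to 4 genes per list and comparison, and 13 fixed genes. Other members named, among them Hist1h1d, Hist1h1e, Hist1h1t, Hist1h2be, Hist1h2bf, Hist1h3d, Hist1h3g and Hist1h4k, were chosen after their values were seen.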

Additional observations from a re-analysis of the deposited data

Results flagged for a closer look

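In 87 sets of 6 libraries, 1 library lay apart from the other 5 by Dixon's criterion in 11. The criterion's chance rate of about 1 in 20 holds for independent, normally distributed values. These sets overlap, their members were picked by call or level, and each of the 11 values was the highest of its set. The 11 therefore cannot be read as an excess over chance. Of the 11, 6 were Upf2 mock replicate 3, which also had the lowest correlation with its group. In that library Hist1h2bn was at 14.2 TPM (others 2.92 to 6.63 TPM), Hist2h2be at 26 TPM (9.14 to 11 TPM), Hist1h2be at 2.37 TPM (0.618 to 1.05 TPM), Hist1h2bh at 2.51 TPM (0.501 to 1.23 TPM) and Hist1h3d at 7.05 TPM (0.713 to 1.90 TPM). Its summed H2B was 276 TPM against 109 to 160 TPM.

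Replicate 3 of Upf2 Cre also stood apart for Hist2h2be, at 13.1 TPM (4.52 to 7.73 TPM). Upf2 Trp53 Cre replicate 6 stood apart for Hist1h2ah at 10.1 TPM (0.861 to 3.97 TPM), for Hist1h3g at 14.1 TPM (2.16 to 6.61 TPM) and for summed H2A at 59.4 TPM (12.7 to 29.4 TPM). Upf2 Trp53 Cre replicate 9 stood apart for Hist1h2bf, at 5.12 TPM (1.13 to 2.32 TPM). The part of library preparation in these values was not tested.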

How the results depend on the processing

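No called difference changed sign under the alternatives run, but summed H2A between the Cre groups (log2 -0.03) ran from -0.43 to 0.12 with 1 library left out, and the balance of calls over all genes turned between the Cre groups, from 1791 higher and 374 lower to 305 and 727 with median-ratio scaling. Counts of members called are given as higher and lower, and the lists are processing, decay, variants, chaperones and S phase; the cause of each shift was not tested except where fewer genes or libraries entered. The number of all tested genes called was computed for the main fit, both scalings and the fit without the libraries numbered 3. For the other alternatives it was not computed, so their counts stand without it. With a pseudocount of 0.1, 0 members were lower between the Cre groups. With no filter, 3 members were higher and 1 lower in Upf2 Cre against mock, with 7 S phase genes called; 1 chaperone gene was called in Upf2 Trp53 Cre against mock; between the Cre groups 0 members were lower and 3 processing, 3 variant, 1 chaperone and 3 S phase genes were called. With a mean of at least 5 TPM required, 2 members were higher and 1 lower in Upf2 Cre against mock, 4 higher in Upf2 Trp53 Cre against mock, and 5 higher and 0 lower between the Cre groups, with 10 S phase genes called. Median-ratio scaling gave 0 processing, 1 decay and 2 variant genes in Upf2 Trp53 Cre against mock, and between the Cre groups 6 members higher with 0 processing, 0 decay, 0 variant, 1 chaperone and 0 S phase genes. Quantile normalization gave 1 variant gene in Upf2 Trp53 Cre against mock, and between the Cre groups 6 members higher with 1 processing, 0 decay, 2 variant and 1 S phase gene. Fitting only the compared groups gave 9 S phase genes in Upf2 Cre against mock, 1 variant and 1 chaperone gene in Upf2 Trp53 Cre against mock, and between the Cre groups 0 members lower with 3 processing and 13 S phase genes.

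Libraries of the same number had correlations of their deviations from -0.17 to 0.74, not above 0.1 in every pair. Between mock and Upf2 Cre only replicate 8 was most like its own number. Between mock and Upf2 Trp53 Cre replicates 3, 5 and 6 were, and between the Cre groups replicates 3, 6, 8 and 9 were. The main fit did not take the numbers as pairs, and whether some of them are pairs is not settled by these values. With a replicate block, 8 members were higher and 4 lower in Upf2 Cre against mock. In Upf2 Trp53 Cre against mock 22 members were higher, with 3 processing, 3 variant and 3 chaperone genes called. Between the Cre groups 11 processing and 10 S phase genes were called. How many of all tested genes were called with the block was not computed, so these counts have no background beside them. Without the 3 libraries numbered 3, Upf2 Cre against mock had 11 members higher, 15 processing, 14 chaperone and 29 S phase genes; Upf2 Trp53 Cre against mock had 24 members higher, 2 variant, 5 chaperone and 6 S phase genes; and between the Cre groups 19 members were higher, with 14 processing, 10 decay, 8 variant, 9 chaperone and 25 S phase genes. With 1 library left out at a time, members called ran from 3 to 8 higher and 0 to 3 lower in Upf2 Cre against mock, 8 to 19 higher and 0 lower in Upf2 Trp53 Cre against mock, and 7 to 16 higher and 0 to 2 lower between the Cre groups. In the same order of comparisons, processing genes ran from 8 to 14, 0 to 2 and 0 to 12, decay genes from 6 to 10, 2 to 2 and 0 to 9, variant genes from 6 to 9, 0 to 0 and 0 to 8, chaperone genes from 6 to 12, 0 to 2 and 1 to 6, and S phase genes from 7 to 27, 0 to 1 and 0 to 17. The log2 difference of the summed TPM ran from 0.20 to 0.43, 0.93 to 1.20 and 0.64 to 0.86. Among the log2 differences of members called in the main fit, 310 of those fits kept the call and 74 lost it. Under the other alternatives 268 kept it and 32 lost it. Members without a call and genes of the lists do not enter these numbers. With depth unknown, a member listed at 0 cannot be given an upper limit.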
